A study of Saccharomyces cerevisiae with 2 samples.

Results

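VPS13, MDN1, TRA1 and IRA2 are among the long protein-coding genes of Saccharomyces cerevisiae, and their coding regions give room to follow nucleosome positions far from a promoter. The 4 members were taken by name, out of 6477 genes in the gene table, as fixed intervals that lie within each coding region. VPS13 (YLL040C) was read on chromosome 12 between 54300 and 63500 on the minus strand, a stretch of 9201 bp. MDN1 (YLR106C, listed in the gene table as REA1) was read on chromosome 12 between 349100 and 363600 on the minus strand, over 14501 bp. TRA1 (YHR099W) was read on chromosome 8 between 303000 and 313900 on the plus strand, over 10901 bp. IRA2 (YOL081W) was read on chromosome 15 between 171200 and 180200 on the plus strand, over 9001 bp. Coordinates are those of the deposited reads, for which the submitters' processing notes name the build sacCer2, and the interval edges are accurate to within 50 bp. Transcription start sites were not used, so distances run from the interval edge nearest the gene start.

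Vps13 is a lipid transfer protein at membrane contact sites that was first known from vacuolar protein sorting. Mdn1, or midasin, is a giant AAA ATPase that remodels precursors of the large ribosomal subunit. Tra1 is the activator-binding subunit of the histone acetyltransferase complexes SAGA and NuA4, and Ira2 is a GTPase-activating protein that restrains Ras. In yeast genes, nucleosomes commonly form an array that is phased from the nucleosome-depleted region at the promoter, with the first nucleosome the best positioned and later ones less aligned from cell to cell. Spacing, positioning and density are separate properties: an array may be evenly spaced in each cell and still look blurred when its phase varies between cells.

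The study mapped nucleosomes in yeast as part of work on where accessible chromatin begins and ends. Cells of the laboratory strain BY, as the study's summary of its datasets names them (the sample labels give no strain), were grown in rich medium and fixed with 1% formaldehyde. Micrococcal nuclease (MNase), which cuts linker DNA faster than DNA wrapped around histones, was used to release mononucleosomes, and fragments of about 147 bp were cut from a gel and sequenced from 1 end. All of the data come from 1 condition in 2 libraries, named here replicate 1 and replicate 2, and whether the second came from a separate culture or from the same material is not given in the labels, so the gap between them may be technical.

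Replicate 1 held 21957427 reads on the 16 nuclear chromosomes and replicate 2 held 19261599. The 4 intervals took 73269 and 66426 of these, together 0.339% of the nuclear reads on 0.362% of the nuclear sequence. Each interval was split into bins of 1 kb from the edge, which gave 42 full bins: the 4 first bins (the first 1 kb) and 38 interior bins. The 5′ end of each read was moved along its strand, 47 bp for the first library and 42 bp for the second, which is the middle of the distance between the read peaks of the strands, and is called a midpoint below. That strand distance was 81 and 63 bp in the pooled interiors, 97 and 74 bp in the first 1 kb, and 93 and 84 bp over the nuclear genome in replicates 1 and 2, in each case below the 147 bp of the excised fragments. The background was the set of 11621 nuclear windows of 1 kb with at least 100 reads in each library. With 1 condition and 2 libraries no test between groups exists, so values are given for each library and differences are read against the gap between the libraries. Bins and positions of 1 gene share their library and are not replicates.

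**Figure D1:**
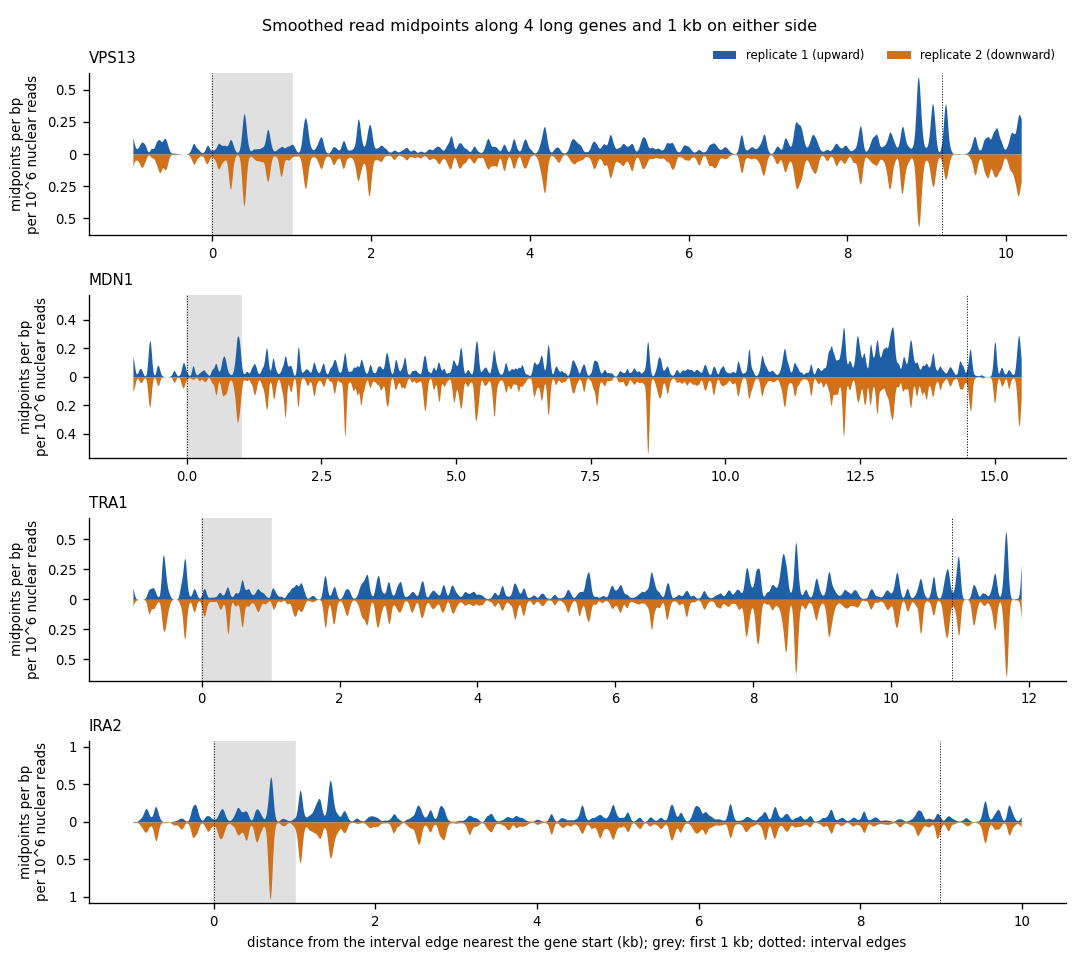
Smoothed midpoints per bp and 1000000 nuclear reads along the 4 genes and 1 kb on either side, by distance in kb from the interval edge nearest the gene start, with replicate 1 drawn upward and replicate 2 downward. The grey area is the first 1 kb and the dotted lines are the interval edges. Profiles of the libraries mirror each other over most of each gene, and a stretch almost without midpoints lies before each grey area at -344 bp (VPS13), -367 bp (MDN1), -384 bp (TRA1) and -548 bp (IRA2) in replicate 1.

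Upstream of every gene both libraries showed a stretch almost free of midpoints. In VPS13 the lowest point within 600 bp of the edge lay at -344 bp in replicate 1 and -345 bp in replicate 2, at 0.0826% and 0.0655% of the gene's mean, and the gene UBI4 precedes it. MDN1 had its lowest point at -367 and -374 bp, at 0.264% and 0.00803% of the gene's mean, on the side of REX3. In TRA1, next to SFB3, the lowest point was at -384 and -397 bp with 0.161% and 0.183% of the gene's mean. IRA2, next to ATG19, was less depleted, with 3.40% and 5.35% of the gene's mean at -548 and -552 bp. The libraries placed the low point at almost the same base in VPS13 and IRA2 and somewhat farther apart in MDN1 and TRA1. Low values were not particular to the upstream side. Past the far edge the lowest points were 1.11% and 1.14% of the gene's mean in VPS13 and 1.57% and 0.0454% in MDN1. They were 2.18% and 0.353% in TRA1 and 6.03% and 2.53% in IRA2.

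Downstream of the depleted stretch before each gene, the first call lay within a few bp in both libraries, and later calls differed more. In IRA2 they lay at -396, -228 and -68 bp in replicate 1 and at -398, -250 and -64 bp in replicate 2, with distances of 168 and 160 bp in replicate 1 and 148 and 186 bp in replicate 2. In MDN1 the first calls were at -233, -55 and 121 bp in replicate 1 and at -230, -65 and 118 bp in replicate 2, which gave distances of 178 and 176 bp against 165 and 183 bp. TRA1 did not show such a run: its first call at -244 and -245 bp was followed by distances of 283 and 337 bp in replicate 1 and 283 and 345 bp in replicate 2. In VPS13 the call at -229 and -227 bp was followed at 87 bp in replicate 1, whereas replicate 2 had a further call at -65 bp between them. TRA1 thus had wide distances in both libraries, VPS13 differed between the libraries, and the second calls of IRA2 lay more than 20 bp apart. Over the 1 kb from the low point, regularity (defined below) was 0.457 and 0.104 in MDN1, 0.129 and 0.109 in IRA2, 0.146 and 0.440 in VPS13 and -0.0293 and 0.0305 in TRA1, so no gene reached 0.3 in both libraries.

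Density was similar in the interiors of all 4 genes, and the first 1 kb was what varied. Interiors held 75.3 and 74.5 midpoints per kb and 1000000 nuclear reads in VPS13 (replicates 1 and 2), 76.6 and 78.4 in MDN1, 74.8 and 76.3 in TRA1 and 78.4 and 79.6 in IRA2. The first 1 kb held 75.6 and 92.7 in VPS13, 68.1 and 68.4 in MDN1, 57.2 and 71.2 in TRA1 and 115.6 and 155.5 in IRA2. IRA2 was thus less dense inside than at its start in both libraries, with ratios of 0.678 and 0.512. MDN1 was denser inside in both libraries, by 1.13 and 1.15, and so was TRA1, by 1.31 and 1.07. VPS13 gave 0.997 in replicate 1 and 0.804 in replicate 2, so its direction rests on replicate 2. Over the 4 genes the median ratio with both libraries added was 1.016, and no shared direction was seen. When the first 1 kb was counted from the upstream low point instead, a choice made after seeing the data, the ratio was 2.10 and 2.69 in MDN1, whose start then held 36.4 and 29.1. It was 0.908 and 0.819 in IRA2, closer to 1 than from the edge. TRA1 then gave 1.06 and 0.905, so its direction in replicate 2 turned, and VPS13 gave 1.2 and 0.997.

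**Figure D2:**
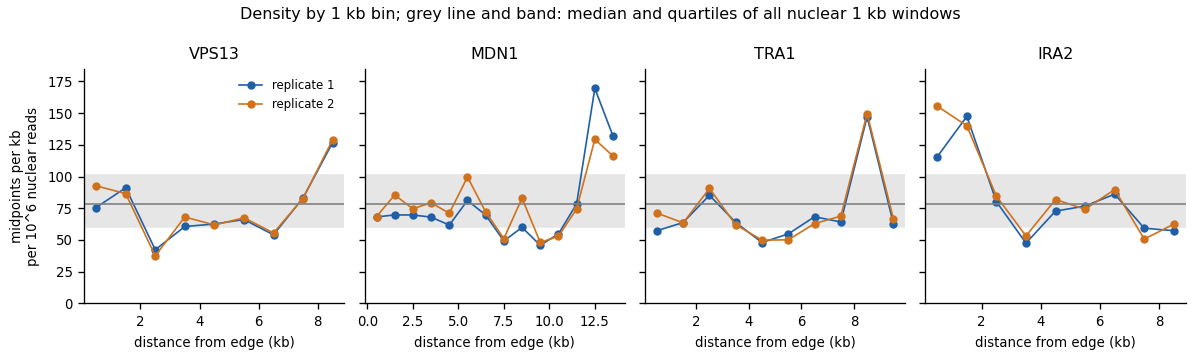
Midpoints per kb and 1000000 nuclear reads in each 1 kb bin of the 4 genes, by distance from the edge in kb, with 1 line per library. The grey line and band are the median (78.5) and quartiles of the 11621 nuclear windows. The highest interior bins lie at different distances, in the later part of VPS13, MDN1 and TRA1 and next to the first 1 kb in IRA2.

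Within each gene the density spanned about 3-fold between the emptiest and the densest bin, and both libraries drew a similar outline. In VPS13 the densest interior bin, 8 to 9 kb from the edge, held 126.7 and 129.1, and the emptiest, at 2 to 3 kb, held 42.2 and 37.4. In MDN1 the densest interior bin was at 12 to 13 kb with 169.6 in replicate 1 and 129.4 in replicate 2, the largest gap between libraries among these extremes, and the emptiest was at 9 to 10 kb with 45.7 and 48.0. TRA1 reached 147.2 and 149.6 at 8 to 9 kb and was emptiest at 4 to 5 kb, with 47.9 and 49.8. In IRA2 the densest interior bin was at 1 to 2 kb, with 147.5 and 140.0, and the emptiest was at 3 to 4 kb, with 47.5 and 53.1. The first 1 kb of IRA2 was denser still in replicate 2, with 155.5, but not in replicate 1, with 115.6. Single 5′ ends carried up to 113 reads in the densest bin of TRA1, so part of such a bin can rest on few positions. Fuller single ends lay in MDN1 in replicate 2, outside its densest bin. They carried 223 reads at 2 to 3 kb, where the bin held 1436 midpoints, and 187 at 8 to 9 kb, where it held 1598. Over all 42 bins the libraries correlated with a Pearson's r of 0.919 and a Spearman's rho of 0.914, a description over bins that share 2 libraries.

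Of the 38 interior bins, 11 were denser than the nuclear median with both libraries added, beside 50% of the nuclear windows. The count was 11 in replicate 1 and 15 in replicate 2. It turned round when reads at the same position and strand were counted once: then 24 of 38 interior bins (63.2%) lay above the nuclear median. Whether the interiors are emptier or fuller than the nuclear genome therefore depends on how stacked reads are counted, and the cause was not tested.

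Spacing inside the genes was close to that of the nuclear genome. Adjacent called positions below 300 bp had a median distance of 196 bp in replicate 1 and 205 bp in replicate 2 in the interiors, 198 and 212.5 bp in the first 1 kb (from 13 and 12 distances), and 190 and 194 bp over the nuclear genome. By gene, with both libraries added, the interior median was 189 bp in VPS13, 206 bp in MDN1, 194 bp in TRA1 and 195 bp in IRA2. MDN1 gave 202.5 and 219 bp in the single libraries, VPS13 182 and 207.5 bp, TRA1 189 and 194 bp, and IRA2 221 and 185.5 bp, so the order of the genes differs between the libraries. These medians follow the exclusion zone of 147 bp within which no further position is called: with a zone of 120 bp the interior median was 174 bp. Distances of 300 bp or more made up 33 of 163 interior distances (20.2%), beside 20.4% in the nuclear genome, and 2 of 14 in the first 1 kb. With both libraries added, the longest interior distances were 386 bp in VPS13 (from 3802 bp), 412 bp in MDN1 (from 7760 bp), 453 bp in TRA1 (from 6075 bp) and 406 bp in IRA2 (from 7641 bp). The nearest calls of replicate 2 alone to these starting positions lay at offsets of -122 bp in VPS13 and 72 bp in MDN1. In TRA1 and IRA2 they lay at -3 and 2 bp. The distances in VPS13 and MDN1 thus do not start at a call of replicate 2.

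The distance at which the whole profile of a gene was most like itself, searched between 120 and 220 bp, was 181 and 179 bp in VPS13, 169 and 163 bp in TRA1 and 161 and 158 bp in IRA2. MDN1 was highest at 220 bp in both libraries, the end of the range searched, so no repeat was found for it there. Libraries differed by at most 6 bp in the other genes, which is less than the difference between VPS13 and IRA2. The correlation at that distance was 0.393 and 0.319 in VPS13, 0.293 and 0.251 in TRA1 and 0.207 and 0.137 in IRA2. The repeat of IRA2 was thus the weakest of these.

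Sharpness was measured as the share of midpoints within 20 bp of a called position among those within 73 bp, which is 27.9% when midpoints are spread evenly. Interior positions had a median of 49.2% in replicate 1 and 54.1% in replicate 2, against 48.7% and 54.0% in the first 1 kb and 53.4% and 57.6% over the nuclear genome. Over the 4 genes together these medians differed by 0.487 and 0.0966 percentage points, interior minus first 1 kb, but the genes went opposite ways. VPS13 was less sharp inside, with 48.9% and 56.1% against 54.7% and 75.6% in its first 1 kb, and so was TRA1, with 51.0% and 54.7% against 59.2% and 69.2%. MDN1 had 46.1% and 50.6% inside against 43.4% and 48.4%, and IRA2 49.0% and 56.6% against 47.9% and 53.7%. With both libraries added the pooled interior was lower (51.4% against 57.5%), as it was in VPS13 and TRA1 in each library. Each first 1 kb held only 4 or 5 positions. The first calls after the low point lay before the edge, so they are not in the first 1 kb. Counted from the low point, a choice made after seeing the data, the start of MDN1 had 51.5% and 53.8%. MDN1 was then less sharp inside in both libraries. VPS13 (51.9% and 74.5%) and TRA1 (61.4% and 71.3%) kept their direction, and IRA2 (44.4% and 50.1%) stayed sharper inside. Against the nuclear genome the interiors were lower: 62 of 166 interior positions with at least 100 reads (37.3%) exceeded the nuclear median, beside 50% of nuclear positions. The count was 53 of 157 in replicate 1 and 59 of 147 in replicate 2, and it was 67 of 158 (42.4%) when reads at the same position and strand were counted once. Over the alternatives tried, the share ran between 37.0% and 45.8% apart from replicate 1 alone (33.8%), below 50% in each. In the first 1 kb, 7 of 17 positions in replicate 1 and 8 of 15 in replicate 2 exceeded the nuclear median.

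**Figure D3:**
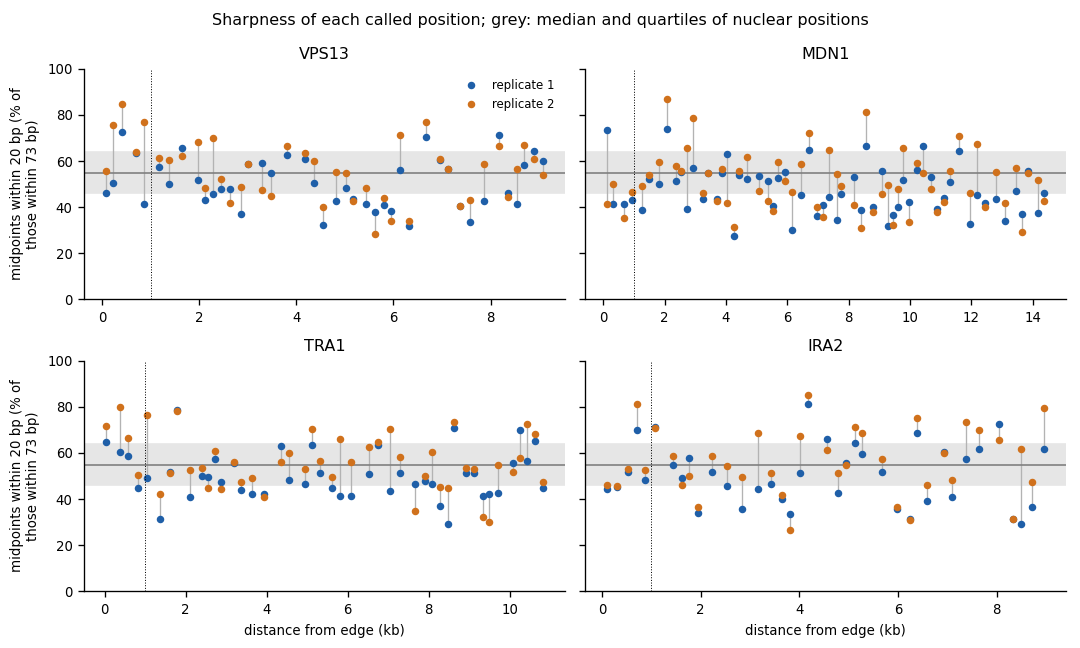
Sharpness of each called position, the percent of midpoints within 20 bp among those within 73 bp, by distance from the edge in kb. Points are the libraries and a grey stroke joins the values of 1 position. The dotted line ends the first 1 kb, and the grey line and band are the median (54.8%) and quartiles of nuclear positions. Sharp and blurred positions stand side by side along the whole length of each gene.

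Single interior positions varied far more than the medians by distance. The sharpest interior position of IRA2, at 4180 bp (chromosome 15, 175380), had 81.1% in replicate 1 and 85.2% in replicate 2, and the least sharp, a short way before it at 3811 bp, had 33.3% and 26.4%. In MDN1 the sharpest interior position lay at 2071 bp (chromosome 12, 361529) with 74.1% and 87.0%, and the least sharp at 4254 bp with 27.5% and 31.3%, near the even value. TRA1 had its sharpest interior position at 1794 bp (chromosome 8, 304794) with 78.4% and 78.2%, and its least sharp at 1364 bp with 31.5% and 42.1%. In the interior of VPS13 the sharpest had 70.4% and 77.0% at 6671 bp (chromosome 12, 56829), and the least sharp 31.8% and 33.8% at 6323 bp. VPS13 had a sharper position in its first 1 kb, at 404 bp, with 72.6% and 84.9%. The least sharp calls of TRA1 and IRA2, made with both libraries added, lay 76 and 67 bp from the nearest call of replicate 1 alone. Medians of sharpness over the 4 genes in bins from 1 to 9 kb ran between 44.6% and 54.3% in replicate 1 and between 52.6% and 58.3% in replicate 2, with no steady fall.

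The fullest and the emptiest interior positions likewise fell at different distances in the 4 genes. The fullest held 1010 and 856 reads within 73 bp in VPS13 at 8899 bp, 911 and 631 in MDN1 at 13101 bp, 761 and 847 in TRA1 at 8623 bp, and 1011 and 810 in IRA2 at 1447 bp. In IRA2 the fourth position from the edge, at 705 bp in the first 1 kb, had 936 and 1312 reads, more than the fullest interior position in replicate 2 and fewer in replicate 1. The emptiest interior positions held 52 and 62 reads in VPS13 at 2627 bp, 102 and 81 in MDN1 at 9101 bp, 64 and 35 in TRA1 at 1611 bp, and 70 and 46 in IRA2 at 4006 bp. The first position of MDN1, at 121 bp, held 120 and 34, fewer with both libraries added than its emptiest interior position. Few reads and low sharpness did not go together in every case, since the emptiest interior position of IRA2 had a sharpness of 51.4% and 67.4%.

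Typical regularity in the interiors was close to that of the nuclear genome, with a lower share of bins regular in both libraries. Regularity was the highest autocorrelation of a bin's smoothed profile at 120 to 220 bp, and a bin was called regular at 0.3 or more. Interior bins averaged 0.156 and 0.195 in replicates 1 and 2, and the first 1 kb 0.187 and 0.343. Interior medians were 0.165 and 0.184, beside nuclear medians of 0.188 and 0.168, so the direction differed between the libraries. With both libraries added, 10 of 38 interior bins (26.3%) were regular, beside 32.4% of nuclear windows. In both libraries separately, 4 of 38 interior bins (10.5%) and 2 of 4 first bins were regular, beside 22.9% of nuclear windows. Among interior bins, the highest regularity in the single libraries was at 8 to 9 kb of VPS13, with 0.656 and 0.624. Positions there followed each other at 200, 174, 156 and 199 bp in replicate 1 and at 198, 172, 155 and 210 bp in replicate 2. The bin at 9 to 10 kb of MDN1 had 0.570 and 0.610, and was the higher of this pair with both libraries added (0.713 against 0.684). It showed distances of 195, 170, 156, 167 and 170 bp in replicate 1 and 183, 168, 168, 155 and 173 bp in replicate 2. That MDN1 bin was also the emptiest of its gene, whereas the VPS13 bin was the densest of its gene. The remaining bins regular in both libraries, at 9 to 10 kb of TRA1 (0.424 and 0.379) and at 2 to 3 kb of VPS13 (0.349 and 0.382), were highest at an end of the range searched, as were 15 of the 38 interior bins with both libraries added. Of the first bins regular in both libraries, MDN1 (0.486 and 0.669) was highest at 220 bp in both, and TRA1 (0.304 and 0.332) at 220 and 213 bp.

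Decay of phasing was followed by setting each 1 kb stretch against the same gene moved downstream. Over the nuclear genome the mean correlation had maxima at 166, 328, 482 and 637 bp, the first with r = 0.103. The interiors had a first maximum at 160 bp with r = 0.0501 and later ones at 293, 442 and 638 bp. Their highest maximum, r = 0.0623, lay farther out at 1118 bp, above the nuclear maximum at 1106 bp with r = 0.0166. The first 1 kb had its highest maximum, r = 0.393, at 764 bp, from only 4 stretches. As a measure of a repeat, the correlation at 166 bp less that at 250 bp averaged 0.0875 in replicate 1 and 0.0443 in replicate 2 over 36 interior stretches, -0.119 and 0.0504 over the 4 first stretches, and 0.244 and 0.202 over the nuclear genome. It was above 0 in 18 of 36 interior stretches (50%), beside 76.2% of nuclear windows, and in 19 and 17 of 36 in the single libraries. Both distances were taken from the nuclear mean curve, whereas the interior curve had its first maximum at 160 bp and the minimum after it at 224 bp. A stretch with another spacing can score lower here, so the lower share does not by itself show weaker phasing. When reads at the same position and strand were counted once, 26 of 36 (72.2%) were above 0, beside 76.3% of nuclear windows counted that way, so the lower share was not seen under that counting. With a move of 73 bp the gap was smaller, 20 of 36 (55.6%) beside 63.5%. At the second repeat, 328 bp less 406 bp, the interiors averaged 0.0405 and -0.0239, the first stretches 0.223 and 0.272, and nuclear windows 0.127 and 0.106. There the first stretches were above 0 in 3 of 4 and 4 of 4, and the interiors in 19 and 16 of 36. At the third repeat, 482 bp less 557 bp, 20 of 35 interior stretches (57.1%) were above 0 with both libraries added, against 1 of 4 first stretches and 58.3% of nuclear windows. By gene the values at the first repeat were highest in TRA1, with means of 0.267 and 0.317 and 7 of 9 stretches above 0, whereas MDN1 had -0.00705 and -0.100 with 4 of 13 above 0 when the libraries were added. VPS13 had 0.110 and 0.0487, and IRA2 0.00954 and -0.0416. This order depends on the distance used. With both libraries added the repeat of TRA1 itself was 166 bp, whereas that of VPS13 was 180 bp. At its own repeat the whole profile of VPS13 had the higher correlation, 0.366 against 0.285 in TRA1.

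**Figure D4:**
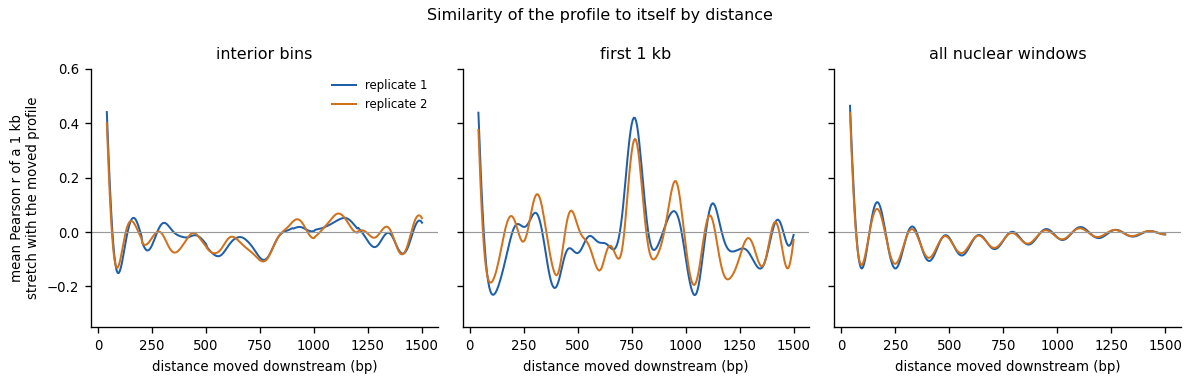
Mean Pearson's r between a 1 kb stretch and the profile moved downstream by the distance on the horizontal axis (bp), for interior bins, for the first 1 kb of the 4 genes and for all nuclear windows, with 1 line per library. Nuclear windows oscillate with a first maximum at 166 bp. The interior curve has a lower first maximum than the nuclear one but not lower waves throughout, and the curve of the first 1 kb rests on 4 stretches.

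The number of successive repeats over which a stretch stayed correlated was counted (r of at least 0.1, within 30 bp of each multiple of the gene's repeat). It showed no steady fall with distance. In bins from 1 to 7 kb, with all 4 genes, its means were 1.25, 2.75, 0.5, 1, 1.25 and 0 in replicate 1. They were 1, 2.5, 0.75, 0.75, 1.75 and 0 in replicate 2. Farther in, fewer genes were counted. Over all stretches the number averaged 1.55 and 1.45 in 31 interior stretches, 0.5 and 2.5 in the 4 first stretches, and 1.28 and 1.15 in nuclear windows. Nuclear windows were counted at the repeat of the nuclear mean curve, and each gene at its own. Nuclear and gene values are therefore not measured alike. The gap between the libraries in the first 1 kb came from VPS13, with 0 repeats in replicate 1 and 8 in replicate 2. For MDN1 the repeat used was the end of the range, so its counts are not tied to a found repeat. MDN1 gave 11 of the 31 interior stretches, with means of 2.18 and 1.64. The interior means were 1.17 and 0.667 in VPS13, 1.5 and 2 in TRA1 and 0.833 and 1.17 in IRA2.

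By matched positions the libraries agreed inside the genes about as well as elsewhere, and by bin correlation (below) somewhat less well. Among the 169 interior calls made from replicate 1 alone, 134 had a counterpart in replicate 2 no more than 20 bp away, which is 79.3% with an exact binomial 95% interval of 72.4 to 85.1% that covers counting error only, beside 80% of nuclear positions. In the first 1 kb, 16 of 18 were matched (88.9%), with an interval of 65.3 to 98.6% that includes the interior's share. TRA1 had the highest interior share (85.4%), followed by MDN1 (81.0%), IRA2 (75%) and VPS13 (73.7%). Matched positions were a median of 4 bp apart in the interiors, 3 bp in the first 1 kb and 4 bp over the nuclear genome.

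**Figure D5:**
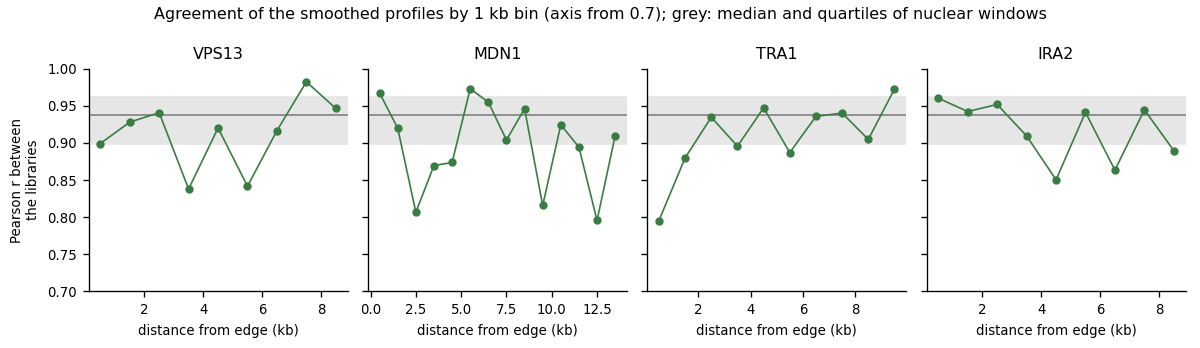
Pearson's r between the smoothed profiles of the libraries in each 1 kb bin, by distance from the edge in kb, on an axis that starts at 0.7. The grey line and band are the median (0.937) and quartiles of nuclear windows. Values in the 42 bins run between 0.795 and 0.982 without a trend shared by the genes.

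By bin, the smoothed profiles of the libraries correlated with a median r of 0.918 in the interiors (0.795 to 0.982), 0.930 in the first 1 kb (0.795 to 0.967) and 0.937 in nuclear windows. The lowest interior value, 0.795, was in MDN1 at 12 to 13 kb, which also had the largest density of replicate 1 over replicate 2 among the 42 bins, 1.31. The highest, 0.982, was in VPS13 at 7 to 8 kb, where the densities were 83.2 and 82.7. The first 1 kb of TRA1 was as low as the lowest interior bin.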

How the data were processed

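The authors digested formaldehyde-fixed yeast with MNase, sequenced mononucleosomal DNA from 1 end and deposited 1 line per aligned read for each of 2 libraries. Each deposited line holds the position and strand of a read lengthened to 150 bp and no count or score. The submitters' processing notes name the build sacCer2. The aligner and the treatment of duplicate reads are not given in the sources used here, and duplicates were kept.

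From these positions, 5′ ends were moved to the strand midpoint, smoothed with a Gaussian (SD 20 bp), and called as local maxima with an exclusion zone of 147 bp. The strand distance was searched from 60 bp with at most 20 reads per position. Density was taken per 1000000 nuclear reads. Python 3.11.15, numpy 2.4.6, scipy 1.17.1, pandas 2.3.3 and matplotlib 3.10.9 were used, and the calling was tested on simulated data. The gene table, of another assembly, was used only for names and neighbours.

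Single positions were named by rule: the first 4 from the edge and, in the interior, the sharpest and least sharp, the fullest and emptiest, and the longest distance. Positions of the first 1 kb that exceed these were added after their values were seen. Members, measures and rules were chosen with earlier results of these data known.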

Additional observations from a re-analysis of the deposited data

How the results depend on the processing

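The ratio of interior to first 1 kb density (1.016) stayed between 0.938 and 1.061 in all 7 alternatives. The interior minus first 1 kb difference in sharpness, -6.11 percentage points, changed in all 15 by more than 0.276, the SD of the single-library values. The libraries alone gave similar values, so that SD is small and the count of 15 says little. The difference stayed negative except with a move of 73 bp and in the single libraries. It was 0.112 with a move of 73 bp, -0.772 with 1 read per position and strand, -3.55 when calls could lie 120 bp apart, -1.55 and -5.80 with a smoothing SD of 10 and 30 bp, -11.03 with a minimum height, -3.35 and -3.75 within 10 and 30 bp, -6.39 and -4.53 with edges moved toward the gene start and end, -5.49 with the first 2 kb as reference, and 0.0966 to 0.487 without 1 of the replicates. With alternatives chosen after seeing the data it was -8.38 with a move from the genes' own strand distance and -9.87 from the upstream low point.

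The interior spacing (195 bp) became 205 bp with a move of 73 bp, 174 bp with a zone of 120 bp, 202 bp with an SD of 30 bp, and 196 to 205 bp without 1 of the replicates. Regularity, interior minus first 1 kb (-0.0716), became 0.137 with a move of 73 bp and 0.00876 with an SD of 30 bp. The matched share (79.3%) fell to 69.0% with a move of 73 bp, 65.1% with an SD of 10 bp and 69.2% within 10 bp, and the library correlation (0.918) was 0.888 with a move of 73 bp and 0.886 with an SD of 10 bp. The run of repeats in the first 1 kb (0.75) was 2.25 with 1 read per position and strand, 2.5 with edges toward the gene start and 0.5 to 2.5 without 1 of the replicates. The alternatives for the counts against the nuclear genome were also added after seeing the data. Of these counts, the dense bins moved to 24 with 1 read per position and strand. Under that counting, the stretches with a higher correlation at 166 than at 250 bp rose to 26 of 36 (72.2%, beside 76.3% of nuclear windows). The cause was not tested in any of these.

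No paired analysis was possible because the series holds 1 group. The first 1 kb gave only 18 positions and 12 or 13 distances, since it is 4 bins. Since the strand distance was below the excised fragment length, a midpoint is not a measured nucleosome centre.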
